A study of Mus musculus with 3 samples.

Results

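Imprinted genes are read from only 1 of the parental chromosomes. The genes described here are 8 named imprinted genes: Dlk1, Meg3, Rian and Mirg of the Dlk1-Dio3 cluster, Peg3, Ndn and Snrpn, which belong to 2 separate imprinted clusters of chromosome 7, and Nnat. They were chosen by symbol, and 7 of the 8 were found among 28001 features. Rian was not analysed here. None of them was used to name a cell class. The counts carry no information on the parental allele, so levels are described and imprinting itself is not.

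The cells came from the nucleus accumbens, the ventral part of the striatum, of Thy1::ChR2 mice. In this strain the Thy1 promoter drives the light-gated channel channelrhodopsin-2 (ChR2) in a subset of neurons. All 3 samples belong to 1 group, which received the reporter system FLiCRE during light stimulation of ChR2 and was dissected as a coronal piece of 400 um. FLiCRE writes calcium that coincides with light into a reporter RNA, taken here to be mCherry. No unstimulated group was analysed, so every comparison is between cell classes of the same libraries. Age and sex of the mice, and whether each library came from a separate animal, are not given in the sources used here, so p-values measure the spread between these libraries only.

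Of 11625 deposited cells, 9923 were kept, with 2789355, 14578665 and 6276639 UMIs in libraries 1 to 3 (a UMI is a tag that counts each RNA molecule once). Libraries are numbered by their barcode suffix, which nothing ties to a labelled replicate. Cells were sorted into classes by marker genes. The gates gave 4738 neurons, 2628 of which were spiny neurons (1489 D1-like and 1139 D2-like), and 1706 cells stayed without a class. Library 2 stood apart in the amount of neuronal RNA found in other cells: the CPM (UMIs scaled to a common total per class and library) of 8 spiny neuron transcripts that no neuron gate used, such as Ppp1r1b and Pde10a, had a median of 1.87%, 11.7% and 3.31% of the neuronal CPM in the non-neuronal cells of libraries 1 to 3. Libraries share 13, 7 and 22 barcode sequences in pairs.

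In the imprinted Dlk1-Dio3 cluster, the paternal chromosome gives the protein-coding genes and the maternal one gives the long noncoding RNAs Meg3, Rian and Mirg, which host many small RNAs. Dlk1 codes for a transmembrane protein of the Delta family without the usual Notch-activating domain. Peg3 codes for a zinc finger protein, Ndn for necdin, a MAGE family protein of postmitotic neurons, Snrpn for the splicing protein SmN, and Nnat for neuronatin, a small membrane protein of the endoplasmic reticulum. Ndn and Snrpn lie in the region lost in Prader-Willi syndrome, and all 4 are expressed from the paternal chromosome.

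The 7 genes lie in 3 chromosomes of the mouse build GRCm38 (GENCODE M21). Dlk1 (ENSMUSG00000040856) spans chr12:109452823-109463336 on the plus strand, Meg3 (ENSMUSG00000021268) spans chr12:109541001-109571726 and Mirg (ENSMUSG00000097391) spans chr12:109729764-109749460, both also on the plus strand and annotated as long intergenic RNAs. Peg3 (ENSMUSG00000002265) lies on the minus strand at chr7:6703892-6730431, and the gene Usp29 starts 146 bases away from it on the other strand. Snrpn (ENSMUSG00000102252) lies on the minus strand at chr7:59982495-60140219 and Ndn (ENSMUSG00000033585) on the plus strand at chr7:62346569-62350262. Nnat (ENSMUSG00000067786), at chr2:157560078-157562522 on the plus strand, sits inside the span of Blcap on the other strand and shares 0 exon bases with it. All 216 exon bases of Snurf lie in Snrpn exons on the same strand. The Snurf feature held 0 UMIs, so reads of the 2 cannot be told apart and Snrpn is uncertain in that respect. RefSeq places 1 miRNA hairpin inside the span of Meg3 and 14 inside that of Mirg, and the miRNAs themselves were not measured.

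Promoter windows are shown for 4 of the genes because Dlk1 differed between D1-like and D2-like neurons while Meg3, in the same cluster, was not called there, and because Ndn and Nnat, on different chromosomes, were both higher in oligodendrocyte precursors and Sst-Npy interneurons. Peg3 was higher in both classes too, and its window holds no GCATGCG. The Sst-Npy calls of all 3 were lost when any 1 library was left out. Each window holds 250 bases before and 50 after a RefSeq start (GRCm38.p6), 5′ to 3′ on the strand of the gene. Capitals mark TGACGTCA, the letters of the cyclic AMP response element, and GCATGCG on either strand, which are part of the letters bound by NRF1. Both were picked after the sequences were seen.
Dlk1, chr12:109452573-109452872, plus strand: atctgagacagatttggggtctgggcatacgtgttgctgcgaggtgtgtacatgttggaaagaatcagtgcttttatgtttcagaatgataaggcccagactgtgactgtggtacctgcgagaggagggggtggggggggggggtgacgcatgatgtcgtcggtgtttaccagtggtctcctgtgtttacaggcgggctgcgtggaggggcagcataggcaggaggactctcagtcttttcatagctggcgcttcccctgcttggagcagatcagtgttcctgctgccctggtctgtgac
Meg3, chr12:109540746-109541045, plus strand: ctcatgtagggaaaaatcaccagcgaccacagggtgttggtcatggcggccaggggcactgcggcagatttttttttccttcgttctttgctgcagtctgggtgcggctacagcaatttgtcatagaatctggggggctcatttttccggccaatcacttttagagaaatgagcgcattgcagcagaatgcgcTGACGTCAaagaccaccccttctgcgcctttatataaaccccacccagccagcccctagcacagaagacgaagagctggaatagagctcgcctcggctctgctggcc
Ndn, chr7:62348027-62348326, plus strand: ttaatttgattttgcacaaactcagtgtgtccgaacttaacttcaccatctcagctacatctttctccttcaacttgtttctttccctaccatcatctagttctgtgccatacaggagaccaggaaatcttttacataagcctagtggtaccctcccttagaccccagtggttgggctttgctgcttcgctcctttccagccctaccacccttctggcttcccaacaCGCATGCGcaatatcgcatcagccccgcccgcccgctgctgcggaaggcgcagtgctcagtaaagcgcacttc
Nnat, chr2:157559828-157560127, plus strand: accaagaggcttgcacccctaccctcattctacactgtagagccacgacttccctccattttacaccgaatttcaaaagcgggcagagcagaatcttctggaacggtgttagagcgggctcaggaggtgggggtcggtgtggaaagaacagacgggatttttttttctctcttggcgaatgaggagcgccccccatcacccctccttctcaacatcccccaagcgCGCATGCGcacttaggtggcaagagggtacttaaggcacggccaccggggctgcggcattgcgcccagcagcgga
TGACGTCA was also present in the Peg3 window and stands in 1.79% of 32851 mouse windows of the same length. GCATGCG was also present in the Snrpn windows and stands in 3.58% of them. The Dlk1 window held neither. The windows of Dlk1, Meg3, Ndn and Nnat held 9, 13, 11 and 17 CpG pairs. The median over all windows was 7, with a 10th percentile of 1 and a 90th of 31. The Peg3 window held 13, the Mirg window 10 and the Snrpn windows 2, 3, 4 and 7. RefSeq gives Meg3 a second start, whose window (chr12:109545148-109545447) holds 1 CpG pair and neither motif. A match describes letters and is no binding site.

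The first question was in which cells these RNAs were found. All 7 genes were higher in neurons than in the other gated cells, in 3 of 3 libraries each, and the difference was widest for the long noncoding RNAs and Dlk1 and narrowest for Nnat. Meg3 stood at 4874, 3729 and 4738 CPM in the neurons of libraries 1 to 3 and at 84.5, 339 and 157 CPM in non-neuronal cells. The groups did not overlap, and library 2, lowest in neurons, was highest in other cells. The fitted log2 fold change of Meg3 was 4.26 ± 0.45 (SE, n = 3 libraries, edgeR quasi-likelihood test with Benjamini-Hochberg adjustment, adjusted p = 0.00012). A Meg3 UMI was found in 97.7% ± 0.772 of neurons (SD, n = 3), so nearly every neuron carried it, with up to 182 UMIs in 1 cell.

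Mirg, a further noncoding RNA of the same cluster, stood at 59.9, 51.3 and 49.4 CPM in neurons and 1.39, 6.72 and 1.5 CPM in other cells. The log2 fold change of Mirg was 3.56 ± 0.41 (adjusted p = 0.0002, edgeR). It was thinly sampled, since no neuron held more than 3 UMIs of it. Dlk1 was at 23.0, 51.6 and 45.9 CPM in neurons and at 0.693, 5.32 and 0 CPM in other cells, where 20 UMIs were counted in 3479 cells. Of these, 19 were in library 2. Its log2 fold change was 3.97 ± 0.59 (adjusted p = 0.00054, edgeR), and 6.57 without library 2, which leaves 1 UMI in other cells. A Dlk1 UMI was found in 2.21%, 8.97% and 8.25% of neurons, so the level of this RNA rested on few cells. In library 1, 16 neurons held its 20 UMIs, at no more than 2 each, so the 60% held by the top 1% of neurons reflects sparse counts. In libraries 2 and 3 the top 1% held 26.7% and 34.0% of 476 and 141 UMIs. For Mirg, with 474 and 152 UMIs there, the shares were 14.1% and 13.2%. For Meg3, with far more UMIs, they were 3.90% to 7.43% over the libraries.

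Peg3, the zinc finger gene, was at 351, 254 and 344 CPM in neurons and 18.0, 39.2 and 32.2 CPM in other cells (log2 fold change 2.95 ± 0.26). Ndn was at 260, 137 and 107 CPM against 38.8, 28.6 and 17.6 CPM (2.06 ± 0.18), and Snrpn at 773, 909 and 994 CPM against 110, 233 and 186 CPM (1.93 ± 0.22). For each of the 3, the lowest neuronal value lay above the highest value of the other cells. Nnat stood at 248, 112 and 98.5 CPM in neurons and 79.0, 49.8 and 40.4 CPM in other cells, with a log2 fold change of 0.89 ± 0.17 (adjusted p = 0.002, edgeR), so its neuronal excess was small. Thus 7 of 7 genes were called higher, where 31.6% of the 12379 genes tested were called higher and 66.2% were called in either direction. Dlk1 and Mirg passed the filter on low counts only through their level in neurons, so the 7 of 7 is partly set by that filter. The median log2 fold change of all genes was -0.05. Without the library as block, the adjusted p of Nnat was 0.065.

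The share of cells with a UMI depended on depth. Neurons had a median of 1092, 2559 and 2642 UMIs and other cells 1003, 1736 and 3146. Cells under 1000 UMIs (318, 195 and 73 neurons and 555, 362 and 109 other cells of libraries 1 to 3) were left out and the rest thinned to 1000 UMIs. The share of neurons with a UMI exceeded that of other cells by 81.9 percentage points for Meg3, 34.9 for Snrpn, 24.6 for Peg3, 10.4 for Ndn, 7.93 for Nnat, 5.42 for Mirg and 3.40 for Dlk1. Over all cells, unthinned, these differences were 73.6, 35.4, 40.7, 18.8, 10.7, 11.2 and 6.05 points in the same order.

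**Figure D1:**
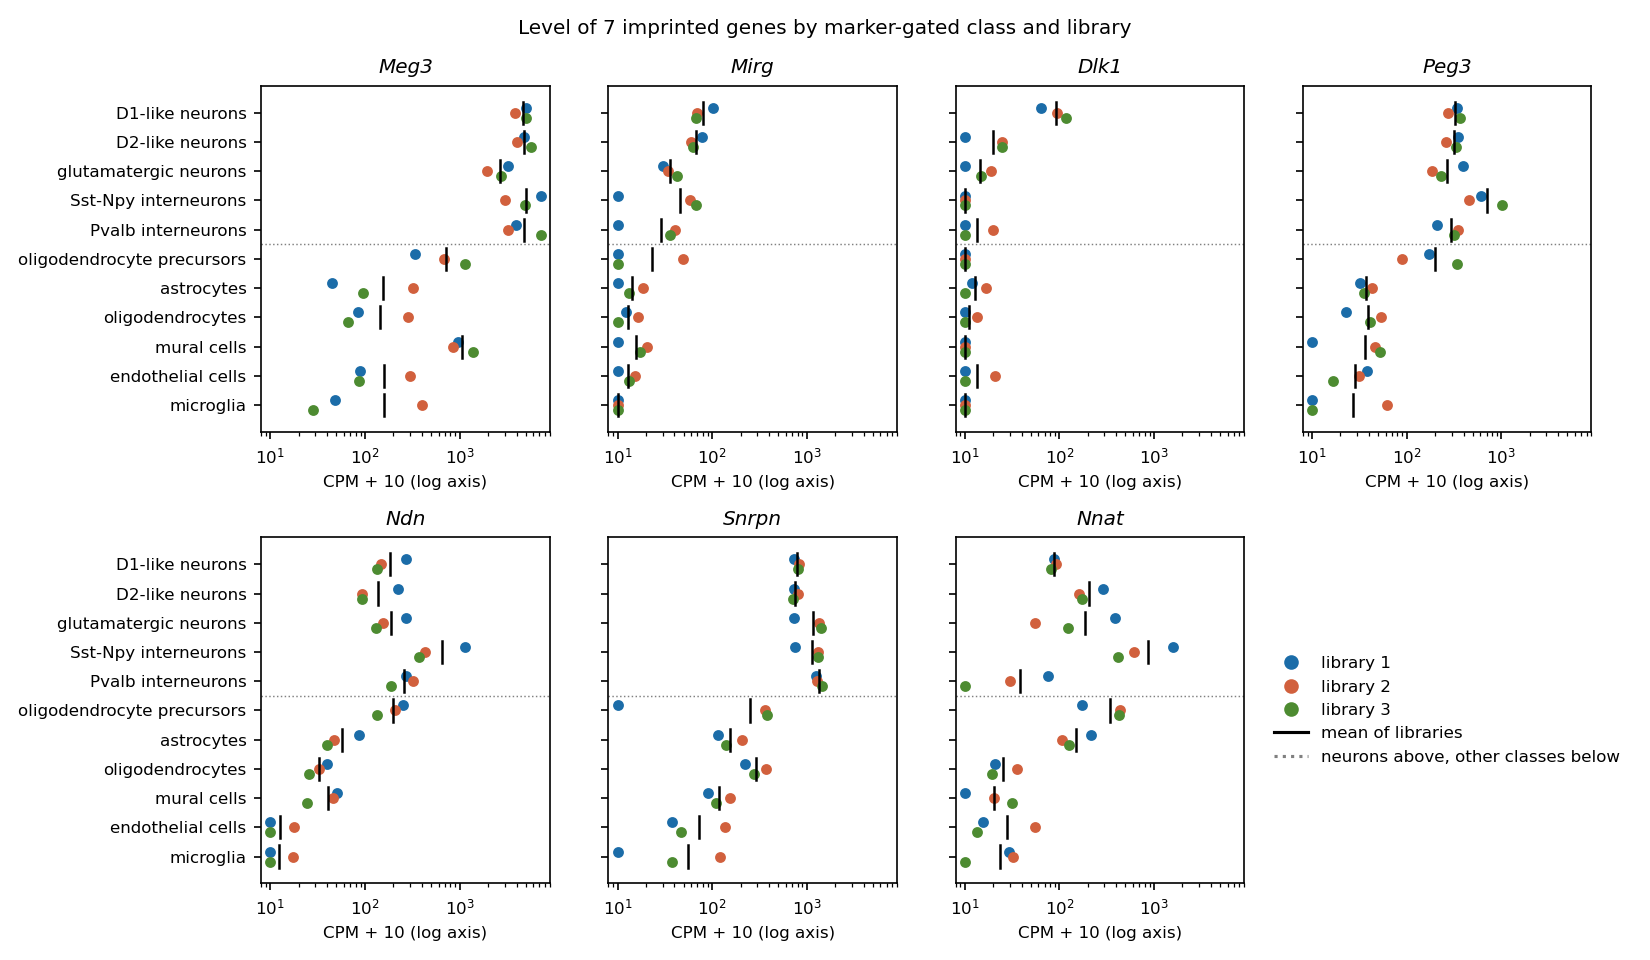
Level of 7 imprinted genes in 11 marker-gated classes (CPM + 10, log axis). Points are libraries and bars are their means. Sst-Npy and Pvalb interneurons rest on 30 and 21 cells in library 2 and on 9 and 7 cells in each other library. Meg3 and Snrpn are high in every neuron class, Dlk1 is high in D1-like neurons, and Nnat reaches neuronal levels in astrocytes and oligodendrocyte precursors.

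The second question was whether glial and vascular cells differed in these RNAs. Each class was compared with the mean of the other 5 among astrocytes, oligodendrocytes, oligodendrocyte precursors, microglia, endothelial cells and mural cells. Of the 7 genes, 5 passed the filter on low counts and all 5 differed among the classes (adjusted p from 5.9e-10 for Nnat to 0.0069 for Meg3, edgeR), where 80% of the 5708 genes tested did. Dlk1 and Mirg were too low to test. Ndn and Peg3 passed that filter only through their level in precursors. Counts out of 5 are therefore not on equal terms with the shares of all genes. In microglia and mural cells Dlk1 had 0 UMIs, which allows up to 22.2 CPM in the microglia of library 2 at 3 UMIs, and this covers counting error only.

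Nnat was high in astrocytes and oligodendrocyte precursors. Astrocytes, the glia that take up glutamate and support synapses, held 208, 97.0 and 117 CPM of Nnat, which was 84.2%, 87.0% and 119% of the neuronal level of the same libraries. An Nnat UMI was found in 22.1% ± 2.53 of astrocytes and in 18.6% ± 1.71 of neurons. Microglia, the resident macrophages, had one in 2.17%, 2.70% and 0% of cells, at a median depth of 810, 883 and 988 UMIs against 1544, 2151 and 3453 in astrocytes. Oligodendrocytes, the myelin-forming cells, held 10.8, 25.5 and 9.49 CPM, and their median depth of 944, 2151 and 4129 UMIs was close to or above that of astrocytes in libraries 2 and 3. The log2 fold change of Nnat in astrocytes over the other classes was 2.43 ± 0.33 (adjusted p = 1.3e-07, edgeR), and it was between 1.94 and 4.72 under 12 other settings.

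Oligodendrocyte precursors, the dividing cells that give rise to oligodendrocytes, held the highest mean level of Nnat in any non-neuronal class. Their Nnat stood at 162, 432 and 414 CPM, the log2 fold change over the other classes was 3.35 ± 0.52 and the adjusted p was 9.2e-06 (edgeR). Ndn in these cells was at 243, 196 and 124 CPM, close to its 260, 137 and 107 CPM in neurons (log2 fold change over the other classes 3.07 ± 0.61, adjusted p = 0.00013, edgeR). Peg3 was at 162, 78.6 and 332 CPM (2.52 ± 0.53, adjusted p = 0.00036, edgeR). This made 3 of 5 genes higher in precursors, where 6.87% of all genes were higher and 6.85% lower. Ndn and Peg3 were tested only because precursors were high. The 3 of 5 is thus partly set by the filter and cannot be weighed against these shares. The gate held 15, 21 and 17 precursors, so these levels rest on 33 UMIs of Nnat, 14 of Ndn and 20 of Peg3, and the Peg3 value was 1.01 without library 3 (adjusted p = 0.61, edgeR) and 4.17 without library 2. With clusters in place of the gates the values were 3.42 for Nnat, 2.32 for Ndn and 1.88 for Peg3, all past the threshold.

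Ndn was also higher in astrocytes, at 75.6, 37.2 and 30.2 CPM, with a log2 fold change of 1.57 ± 0.37 (adjusted p = 0.00035, edgeR). It was 3.14 without library 2 and 1.17 without library 1, past the threshold in both. That made 2 of 5 genes higher in astrocytes, where 29% of all genes were. Ndn was at 0, 7.39 and 0 CPM in microglia and at 0, 8.0 and 0 CPM in endothelial cells, 1 and 3 UMIs in all. Its values over the other classes were -2.76 ± 1.09 in microglia and -2.87 ± 0.87 in endothelial cells (adjusted p = 0.046 and 0.0068, edgeR). The microglial call was lost without any 1 of the libraries (adjusted p = 0.13, 1 and 0.15 without libraries 1, 2 and 3) and with DESeq2 (0.084). The endothelial call was lost without library 2 (1), where no UMI remains, and in cells of at least 1000 UMIs (1).

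Snrpn was higher in oligodendrocytes. It stood at 213, 357 and 270 CPM in oligodendrocytes, 27.6%, 39.3% and 27.2% of the neuronal level, and its log2 fold change over the other classes was 1.65 ± 0.21 (adjusted p = 1.9e-09, edgeR). All 12 other settings kept that call, with values from 1.51 to 3.6. Microglia held 0, 111 and 27.9 CPM of Snrpn and endothelial cells 27.8, 125 and 37.1 CPM, below every oligodendrocyte library. Snrpn was lower in both, with log2 fold changes of -1.37 ± 0.40 and -1.19 ± 0.30 (adjusted p = 0.0063 and 0.00097, edgeR), and both calls were lost without library 3 (0.13 and 0.093). Without library 2 the microglial value was -2.50. With a gate share of 90%, which left too few precursors to use among the other classes, the endothelial value was 0.47. Oligodendrocytes were thus higher in 1 of 5 genes (25.8% of all genes) and lower in 1, Nnat (13.2%), at a log2 fold change of -1.27 ± 0.46 (adjusted p = 0.027, edgeR). That call did not last without library 1, 2 or 3 (adjusted p = 0.065, 0.14 and 0.16), and its value was 0.33 with a gate share of 90%, again without precursors.

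Meg3 was higher in mural cells, the pericytes and smooth muscle cells of vessels. It stood there at 962, 836 and 1362 CPM, above every library of astrocytes (34.7, 311 and 85.5 CPM), oligodendrocytes (75.4, 274 and 57.0 CPM), endothelial cells (77.8, 288 and 77.6 CPM) and microglia (38.1, 392 and 18.6 CPM). The precursors, at 324, 668 and 1140 CPM, overlapped with mural cells. The log2 fold change of mural cells over the other classes was 2.50 ± 0.52 (adjusted p = 0.0045, edgeR), 1 of 5 genes where 13.7% of all genes were higher and 5.78% lower. It was 2.31 without library 1 (adjusted p = 0.078). A Meg3 UMI was found in 38.2%, 51.0% and 59.4% of mural cells against 4.35%, 35.1% and 2.94% of microglia, at median depths of 654, 1098 and 1588 against 810, 883 and 988 UMIs. Microglia were lower in 2 of 5 genes (11.6% of all genes) and endothelial cells in 3 of 5 (11.9%), the third being Peg3 at 27.8, 21.3 and 6.75 CPM (-1.27 ± 0.48, adjusted p = 0.033, edgeR), a call lost without library 2 or 3 (0.99 and 0.49) and with DESeq2 (0.12).

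The members were set beside the 8 spiny neuron transcripts in every class and library. In non-neuronal cells as a whole, every member was highest in library 2 as a percent of its neuronal level, where the spiny transcripts were highest too. Ndn was at 14.9%, 20.9% and 16.5% and Nnat at 31.9%, 44.7% and 41.0%. In CPM, Ndn and Nnat were highest in library 1, as they were in neurons. The part of neuronal RNA in these levels was not tested. In oligodendrocytes Meg3 reached 1.55%, 7.36% and 1.2% of its neuronal level and the spiny transcripts a median of 1.31%, 8.62% and 2.20%. In astrocytes the pairs were 0.713%, 8.35% and 1.80% for Meg3 against 1.68%, 10.8% and 5.68%. Meg3 in these glia thus stood no higher than the spiny neuron transcripts did, apart from oligodendrocytes of library 1. In mural cells Meg3 was at 19.7%, 22.4% and 28.7% of its neuronal level against medians of 0.799%, 19.8% and 4.58%, outside the range of the 8 transcripts in libraries 1 and 3 and inside it in library 2 (7.69% to 29.6%).

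Some pairs of gene and class lay higher, while Dlk1 had 0 UMIs in precursors, microglia and mural cells and Mirg had 0 in microglia. In precursors a count of 0 allows up to 243, 118 and 62.2 CPM of Dlk1. These limits lie above its neuronal level in each library, so no difference was detectable there. In library 1 the limits of 57.15 CPM in microglia and 120 CPM in mural cells also lie above the neuronal 23.0 CPM of Dlk1. Nnat in astrocytes and Snrpn in oligodendrocytes lay above the highest of the 8 spiny transcripts in all 3 libraries, which reached 3.03%, 17.6% and 8.85% in astrocytes and 9.51%, 14.1% and 5.55% in oligodendrocytes. The same held for Ndn in astrocytes at 29.1%, 27.2% and 28.3% and in oligodendrocytes at 11.6%, 16.5% and 14.4%. It also held for Snrpn in astrocytes at 13.5%, 21.4% and 13.1%. In oligodendrocyte precursors, Nnat at 65.5%, 388% and 421%, Ndn at 93.4%, 144% and 117% and Peg3 at 46.2%, 30.9% and 96.4% were above the highest of the 8, which were 10.4%, 23.5% and 37.0%. Nnat in library 1 and Peg3 in libraries 1 and 2 rest on 2 UMIs each, under the floor of 3 UMIs. Those positions are therefore not resolved. Snrpn in microglia, at 0%, 12.2% and 2.80%, lay at or near the medians of 0%, 13.3% and 2.23%.

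The 3 remaining classes were not tested. MHC class II myeloid cells, antigen-presenting cells of the myeloid line, held 123.4, 422 and 193 CPM of Meg3 and 5.61, 108 and 10.7 CPM of Snrpn, highest in library 2 for both. T cells, with 21, 27 and 11 cells, had Meg3 UMIs in library 2 alone, at 314 CPM, and 0 UMIs of Peg3 and Mirg in all 3 libraries. A count of 0 allows up to 129, 94.3 and 184 CPM in these cells. Fibroblasts, with 10 and 11 cells in libraries 1 and 2 and 1 cell in library 3, held 215 and 282 CPM of Meg3 and 53.8 and 132 CPM of Peg3 in the first 2 libraries. These values rest on 4 and 15 UMIs of Meg3 and on 1 and 7 UMIs of Peg3. In library 1 Peg3 lay under the floor of 161 CPM, and in library 2 a single cell held 5 of its UMIs.

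**Figure D2:**
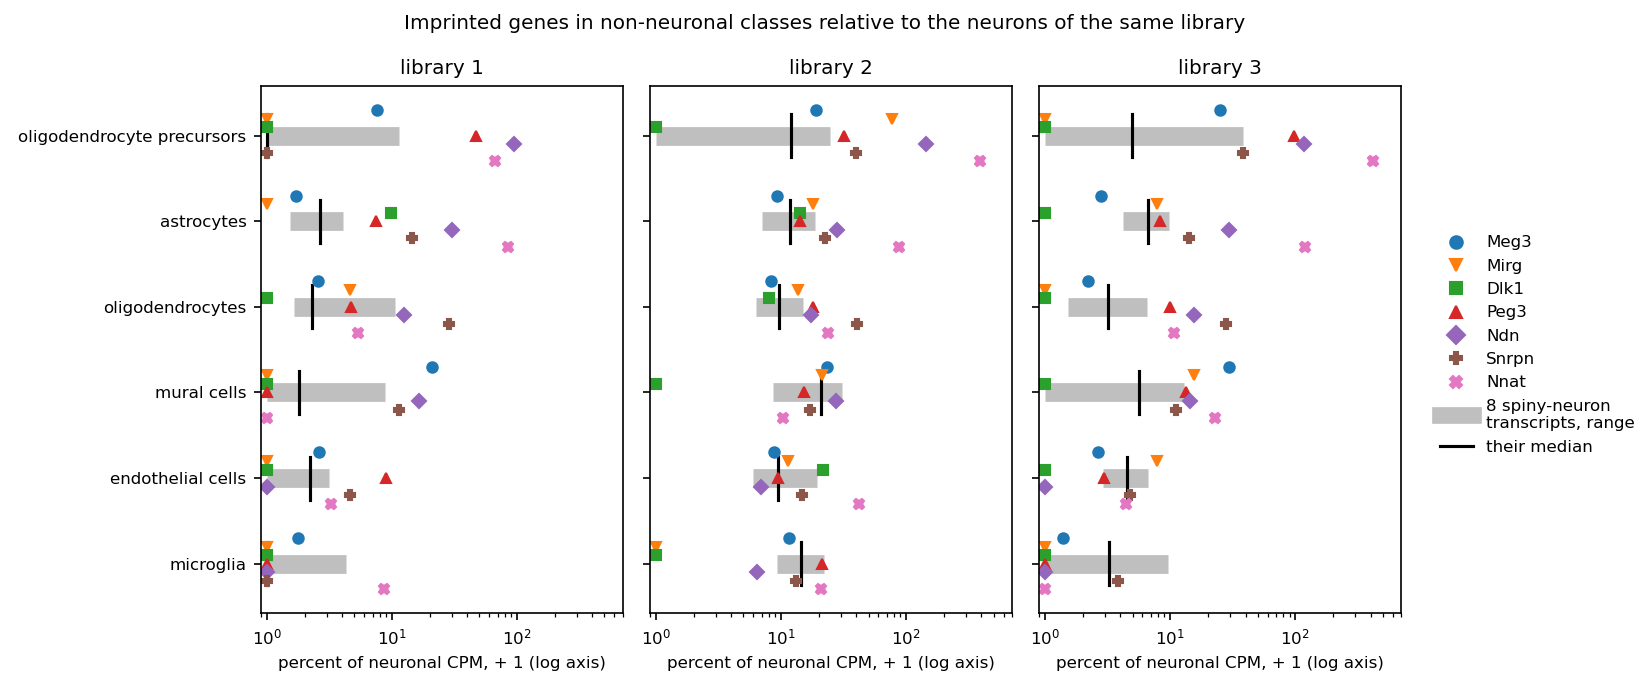
Level of each imprinted gene in 6 non-neuronal classes as a percent of its neuronal level in the same library, plus 1 (log axis). The grey bar spans 8 spiny neuron transcripts and the black line is their median. Meg3 in astrocytes and oligodendrocytes lies left of the black line except in oligodendrocytes of library 1 (1.55% against 1.31%), while Nnat in astrocytes and precursors and Snrpn in oligodendrocytes lie to the right of the bar in all 3 libraries. The Nnat point for precursors of library 1 rests on 2 UMIs.

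The third question was whether the neuron classes differed. D1-like and D2-like neurons are the spiny projection neurons with dopamine receptors of either type, and they separate the output pathways of the striatum. Dlk1 was higher in D1-like neurons, at 54.7, 85.4 and 108 CPM against 0, 14.9 and 14.7 CPM in D2-like neurons. Every D1-like library lay above every D2-like one. The log2 fold change was 2.66 ± 0.20 (adjusted p = 2.5e-16, edgeR), and it passed the threshold under all 11 other settings, with values from 2.58 to 3.07. A Dlk1 UMI was found in 5.49%, 14.6% and 17.8% of D1-like and 0%, 3.15% and 2.38% of D2-like neurons. At 1000 UMIs a cell the shares were 4.72%, 7.61% and 10.2% against 0%, 1.12% and 1.49%. The count of 0 in library 1, in 198 D2-like cells, allows up to 12.7 CPM.

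Nnat went the other way. It stood at 77.4, 82.4 and 72.3 CPM in D1-like and at 279, 150 and 162 CPM in D2-like neurons, without overlap, at a log2 fold change of -1.06 ± 0.12 (adjusted p = 2e-09, edgeR). Ndn was higher in D1-like neurons in each library, at 264, 139 and 122.9 CPM against 211, 82.9 and 83.9 CPM, but the classes overlapped because library 1 was high in both (0.61 ± 0.12, adjusted p = 0.00032, edgeR). Together 3 of 7 genes were called, where 3.01% of the 8197 genes tested were, 1.45% higher and 1.56% lower in D1-like neurons. Dlk1 passed the filter on low counts through its level in D1-like neurons. Without the block the adjusted p was 0.104 for Nnat and 1.0 for Ndn. Without library 3 it was 0.18 and 0.32, and for Ndn it was 0.59 without library 2 and 0.61 with DESeq2.

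The other 4 genes were not called between D1-like and D2-like neurons. Meg3 stood at 4997, 3861 and 5053 CPM against 4756, 4012 and 5685 CPM, a log2 fold change of -0.09 ± 0.05, and Snrpn at 720, 817 and 804 CPM against 731, 790 and 697 CPM, 0.07 ± 0.07. Peg3 differed by 0.07 ± 0.09 and Mirg by 0.22 ± 0.16. Dlk1 was thus called and its cluster neighbour Meg3 was not, and the difference between the 2 genes was not tested.

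Glutamatergic neurons, whose cell bodies lie mostly outside the striatum, made up 49, 95 and 81 cells of libraries 1 to 3 and were compared with all spiny neurons. They were lower in Dlk1, Meg3 and Mirg, the 3 genes of the Dlk1-Dio3 cluster, 3 of 7 where 18.8% of the 7754 genes tested were called and 8.11% were lower. Dlk1 passed the filter on low counts through its level in spiny neurons. Dlk1 stood at 0, 8.72 and 4.87 CPM against 26.3, 56.6 and 62.0 CPM (log2 fold change -3.18 ± 0.42, adjusted p = 0.00022, edgeR). Meg3 stood at 3205, 1958 and 2756 CPM against 4872, 3923 and 5366 CPM (-0.85 ± 0.19, adjusted p = 0.0098, edgeR), and Mirg at 20.2, 24.0 and 32.5 CPM against 78.9, 55.5 and 55.4 CPM (-1.06 ± 0.29, adjusted p = 0.027, edgeR). The values did not overlap for any of the 3, although 0 UMIs of Dlk1 in library 1 allows up to 30.3 CPM. The calls depended on the libraries: without library 3 none of the 7 genes was called, with adjusted p of 0.056, 0.22 and 0.18 for Dlk1, Meg3 and Mirg, and without library 2 Dlk1 alone was, with 0.26 and 0.32 for the others. Without library 1 all 3 were called, and Peg3 (0.011) and Snrpn (0.00024) with them. Over all other settings, the log2 fold change ran from -3.67 to -2.78 for Dlk1, -0.97 to -0.69 for Meg3 and -1.40 to -0.91 for Mirg.

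Snrpn was at 718, 1334 and 1408 CPM in glutamatergic and 726, 806 and 751 CPM in spiny neurons, a log2 fold change of 0.59 ± 0.22 that was not called (adjusted p = 0.091, edgeR). Ndn differed by 0.26 ± 0.19, Peg3 by -0.36 ± 0.20 and Nnat by -0.07 ± 0.33. Nnat was at 374, 45.8 and 112 CPM in these neurons. The median UMI count of glutamatergic neurons was 1844, 4219 and 6711, and that of spiny neurons 1135, 2825 and 2774.

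Sst-Npy interneurons, local inhibitory cells that carry somatostatin and neuropeptide Y, were few, with 9, 30 and 9 cells. Nnat stood at 1572, 598 and 404 CPM in them and 182, 110 and 117 CPM in spiny neurons, without overlap (log2 fold change 2.33 ± 0.25, adjusted p = 0.00017, edgeR). Ndn was at 1123, 417 and 365 CPM against 237, 116 and 104 CPM (1.84 ± 0.24, adjusted p = 0.00047, edgeR), and Peg3 at 599, 452 and 1018 CPM against 338, 259 and 340 CPM (1.07 ± 0.27, adjusted p = 0.024, edgeR). These 3 of the 6 genes tested were higher, where 12.7% of the 5827 genes tested were called, 5.63% higher and 7.04% lower. Each was higher in 3 of 3 libraries, but none was called once any 1 library was left out: the adjusted p without libraries 1, 2 and 3 was 0.094, 0.2 and 0.15 for Nnat, 0.078, 0.17 and 0.23 for Ndn, and 0.14, 0.34 and 0.47 for Peg3. Over all other settings, the log2 fold change ran from 2.10 to 2.52 for Nnat, 1.61 to 2.11 for Ndn and 0.69 to 1.39 for Peg3. Meg3, Mirg and Snrpn were not called (-0.14 ± 0.22, -0.27 ± 0.51 and 0.56 ± 0.27). Dlk1 had 0 UMIs in all 48 cells and was not tested.

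Pvalb interneurons reached 10 cells in library 2 only, so no test was made. Their 21 cells there held 20.1 CPM of Nnat, 312 CPM of Ndn and 342 CPM of Peg3, and the 30 Sst-Npy cells of the same library held 598, 417 and 452 CPM. The Nnat value of the Pvalb cells rests on 2 UMIs. The 9 cholinergic neurons, all in library 2, held 20.8 CPM of Nnat and 706.5 CPM of Ndn, from 2 and 68 UMIs.

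Neurons with at least 1 mCherry UMI, called labelled, were compared with the other neurons. They made up 5.95%, 19.5% and 11.1% of neurons, but 1.71%, 10.0% and 4.85% of non-neuronal cells also held an mCherry UMI, and 15.03% of astrocytes in library 3. With 1 UMI as the criterion, some neurons called labelled may hold background, and its share in this comparison was not tested. None of the 7 genes was called (edgeR), where 0.0782% of the 10233 genes tested were, 0.0684% of them higher and 0.00977% lower as shares of all tested. DESeq2 also called 0, and 1 of the 7 had an unadjusted p under 0.05, Nnat. It stood at 390, 128 and 136 CPM in labelled and 234, 106 and 91.1 CPM in unlabelled neurons (0.42 ± 0.11, adjusted p = 0.53, edgeR), higher in 3 of 3 libraries with overlapping ranges. The median UMI count was 1537, 3345 and 4838 in labelled and 1060, 2419 and 2510 in unlabelled cells.

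**Figure D3:**
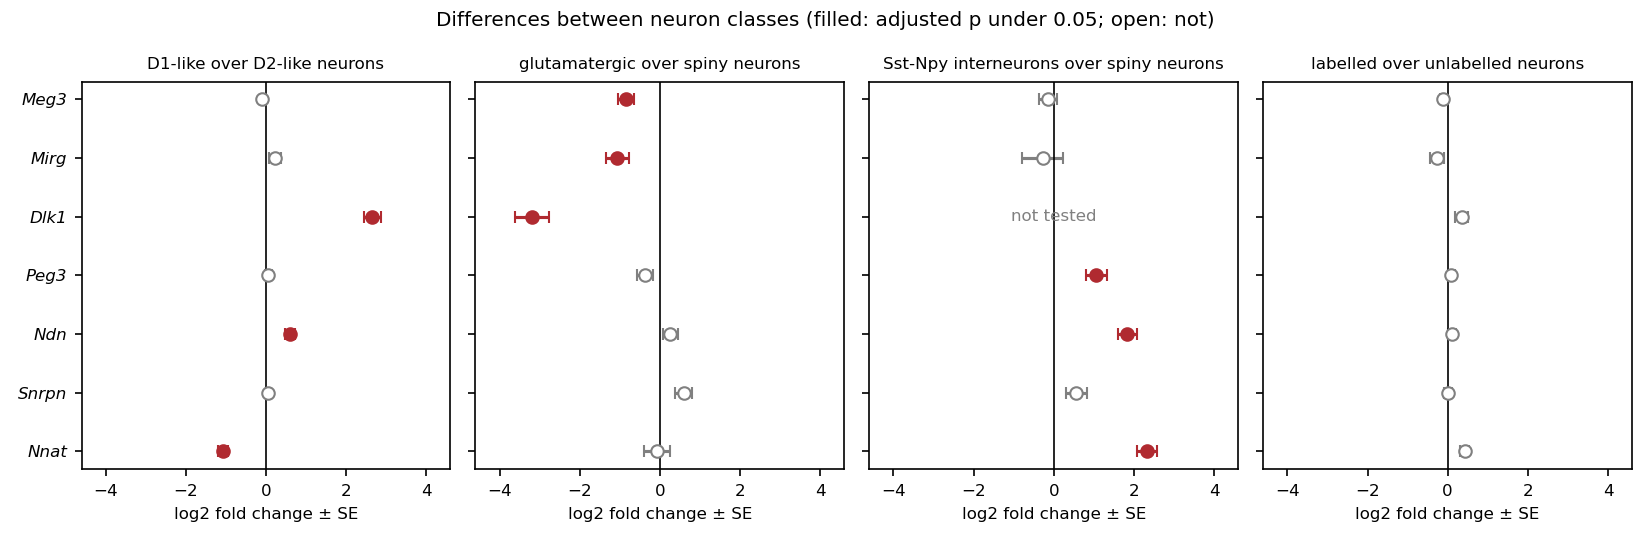
Fitted log2 fold change with its standard error for each imprinted gene in 4 comparisons of neurons (n = 3 libraries). Filled points passed an adjusted p of 0.05 and open ones did not. Dlk1 is to the right in D1-like and to the left in glutamatergic neurons, Nnat, Ndn and Peg3 are to the right in Sst-Npy interneurons, and no point is filled for labelled neurons.

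Clusters of neurons, made without the imprinted genes, were used to describe where Dlk1 was found. The cluster values are a description, with no test, because clusters are built from the same cells. They cover all cells of a cluster: D1-gated cells were 131 of 745 in the Tshz1 and Pcdh8 cluster and 192 of 758 in the Cxcl14 and Tnnt1 cluster. Dlk1 was at 71.6, 96.6 and 145 CPM in the cluster led by Pdyn and Drd1 (mean 104 ± 37.1) and at 66.5 ± 18.1 CPM in the cluster led by Cxcl14 and Tnnt1. It was at 8.64 ± 7.59 CPM in the cluster led by Tshz1 and Pcdh8 and at 15.3 ± 8.80 CPM in that led by Adora2a and Gpr6, which overlap within their SD. Among D1-gated cells alone, those in the Pdyn and Drd1 cluster held 59.99, 88.0 and 121 CPM. Those in the Tshz1 and Pcdh8 cluster held 0, 27.9 and 0 CPM, from 23, 94 and 14 cells, where a count of 0 allows 112 and 71.7 CPM in libraries 1 and 3. In library 1 that limit lies above the value of the Pdyn and Drd1 cluster, so no difference was detectable there, while in library 3 it lies below.

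The cluster led by Sst and Npy, which also held the cells gated as Pvalb and cholinergic, had the highest mean of Ndn (416 ± 175 CPM), Peg3 (541 ± 158 CPM) and Nnat (305 ± 240 CPM) among the neuron clusters present in all 3 libraries. Ndn ranged from 127 ± 70.5 to 189 ± 98.6 CPM in the other 5. Snrpn was lowest in the Pdyn and Drd1 cluster (676 ± 55.3 CPM) and stood at 1199 ± 401 CPM in the cluster led by Slc17a7 and 1253 ± 178 CPM in that led by Sst. A cluster of interferon-response genes such as Iigp1 and Ifit1 had 43 of its 44 cells in library 2, where Dlk1 was at 74.0 CPM and Nnat at 47.1 CPM.

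**Figure D4:**
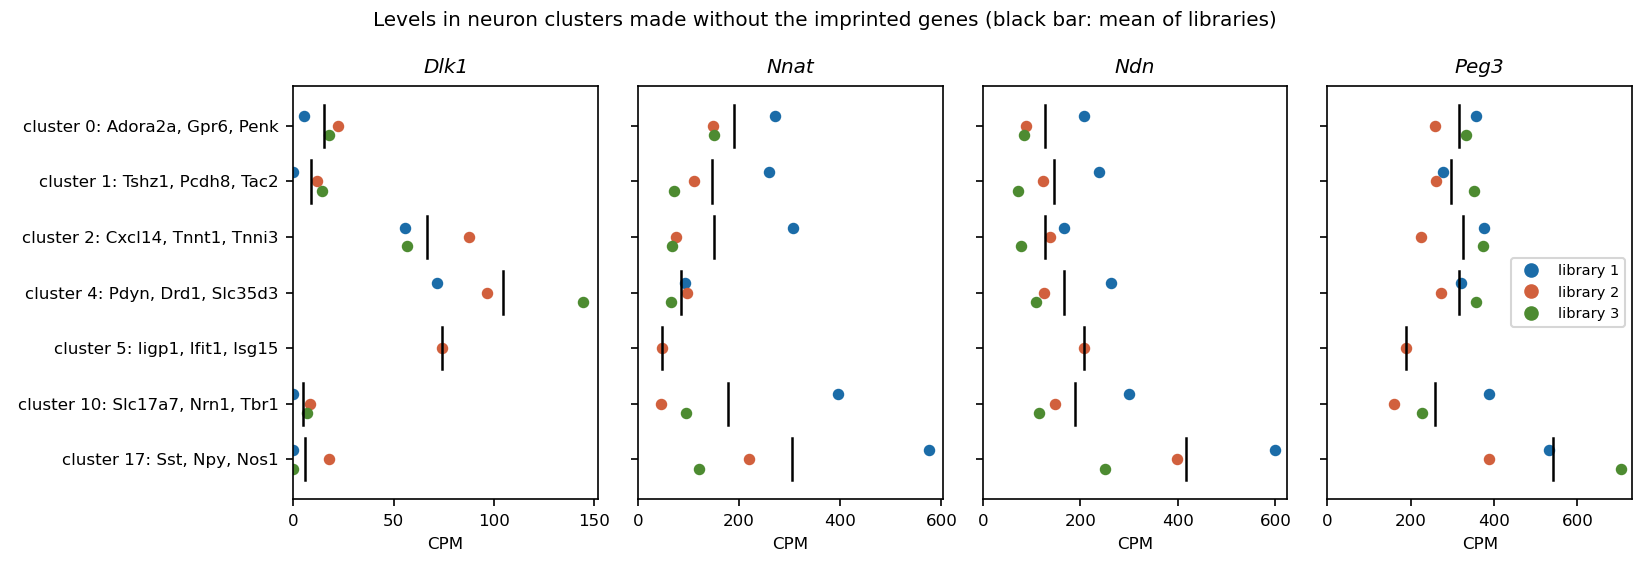
CPM of Dlk1, Nnat, Ndn and Peg3 in 7 neuron clusters, each named by leading genes. Points are libraries of at least 10 cells and bars their means. Dlk1 is high in the Pdyn and Cxcl14 clusters and below 25 CPM in the Adora2a, Tshz1, Slc17a7 and Sst clusters, and the Sst cluster is highest for Ndn and Peg3.

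The genes with the most similar pattern over 35 sums of a library and a class (14 classes, 7638 genes, Pearson r of log2 CPM plus 10) were described, with no test, since the sums share libraries and depth. For Dlk1 these were Strip2 (r = 0.83), Adra2c (0.82) and Rxrg (0.80). Meg3 was like Pja2 (0.94) and Eno2 (0.93), Peg3 was most like Pnmal2 (0.96), Gprasp1 and Rrp1, Ndn most like Cntn1 (0.94), Dynll2 and Map2, Snrpn most like Pja1 (0.95), Thra and Tmem30a, and Nnat most like Cdh11 (0.83), Arxes2 and Nlgn3. Mirg was most like Tceal6 (0.97) and the imprinted gene Usp29 (0.96). Between members, r ran from 0.25 for Dlk1 with Nnat to 0.90 for Mirg with Peg3, and it was 0.87 for Meg3 with Mirg and 0.59 for Dlk1 with Meg3.

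Other imprinted genes were followed as a list, 51 of 55 of which were in the files. In neurons over other cells, 32 were tested, 18 were higher and 7 lower, where 31.6% of all genes were higher and 34.6% lower, and their median log2 fold change was 0.82 against -0.05 for all genes. The neuronal ones included Usp29 (4.18 ± 0.50), Rasgrf1 (3.68 ± 0.36), which codes for an exchange factor of Ras, Zdbf2 (3.65 ± 0.39) and Begain (2.86 ± 0.50), a neighbour of Dlk1. Ube3a, the Angelman syndrome gene, was 1.30 ± 0.20 higher. The lower ones were Cdkn1c, a cell cycle inhibitor (-4.84 ± 0.40), Ddc (-4.11 ± 0.44), Asb4 (-3.66 ± 0.61), Igf2, a growth factor (-3.25 ± 0.40), Atp10a (-3.20 ± 0.36), Commd1 and H13.

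Among the 6 non-neuronal classes, 13 of 15 listed genes differed, near the 80% of all genes that did. Vascular classes held several of them: Igf2 was higher in mural cells (6.33 ± 0.66), Atp10a in endothelial cells (6.86 ± 0.57), and Cdkn1c and Grb10 in both (3.22 ± 0.46 and 4.07 ± 0.69 in mural, 2.76 ± 0.40 and 4.07 ± 0.56 in endothelial cells). Oligodendrocytes were higher in 5 of the 15, where 25.8% of all genes were, among them Nap1l5 (2.06 ± 0.23) and Inpp5f (1.97 ± 0.23), and lower in 1, Gnas (-1.17 ± 0.19), where 13.2% were. Between D1-like and D2-like neurons, 1 of 24 was called, Gnas, which codes for a stimulatory G protein subunit and was lower in D1-like neurons (-2.20 ± 0.11), where 3.01% of all genes were called. In glutamatergic neurons 1 of 24 was higher, Gnas (2.0 ± 0.20), and 6 were lower: Inpp5f, Grb10, Ppp1r9a, Zdbf2, Sgce and Usp29, where 10.6% of all genes were higher and 8.11% lower. In Sst-Npy interneurons 6 of 21 were higher, led by Nap1l5 (3.14 ± 0.23), Gnas (2.43 ± 0.36) and Impact (1.79 ± 0.27), and 2 were lower, Casd1 and Ppp1r9a, where 5.63% of all genes were higher and 7.04% lower.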

How the data were processed

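Per the labels' protocols, the 3 libraries are 10x droplet libraries of version 2 chemistry, which tag the 3′ end. The authors deposited 1 matrix of raw UMI counts, made with Cell Ranger 3.0 on build mm10, per the submitters' processing notes. The annotation release, the cell calling rule and the use of strand in counting are not given in the sources used here. A minimum of 300 detected genes and a mitochondrial share of no more than 20% left 10291 cells. The cells with the highest Scrublet scores per library (0.8% per 1000 cells; scanpy 1.11.5, 368 cells) were removed. A cell joined a class when at least 2 markers of its list had a UMI and the list held at least 70% of the cell's marker UMIs. There were 1062 gated cells at a share of 70 to 80%, and 583 at 60 to 70% stayed out. Classes are therefore rebuilt names. UMI counts were summed per library and class and tested with edgeR 4.0.16 (quasi-likelihood, robust, legacy = FALSE, TMM, filterByExpr, library as block, Benjamini-Hochberg at 0.05 over all genes tested). The libraries pair the sums, because each library gives a sum to either arm. An arm needed 10 cells, or 5 for Sst-Npy interneurons, a minimum chosen after the cells were counted. Clusters came from 30 principal components, 15 neighbours and Leiden resolution 1. DESeq2 1.42.0, other gates, filters, priors and depths, and leaving out each library were alternatives. The fits were tested on simulated data. The members and gene lists were chosen with earlier results of these data known. By the rule for named genes, every member is reported in every comparison, the listed imprinted genes as counts with examples, and up to 3 most similar genes per member among genes of at least 20 mean CPM, of which 1 is not reported here. Of 101 markers, 96 were found. Intervals and floors (3 UMIs) cover counting error only.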

Additional observations from a re-analysis of the deposited data

How the results depend on the processing

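The 7 of 7 calls in neurons held under 11 of 12 alternatives and were 6 without the replicate block. The number of members called among non-neuronal classes fell from 5 to 3 with a gate share of 90%, because Ndn and Peg3 were not tested under it. Nnat in oligodendrocytes (0.33) and Snrpn in endothelial cells (0.47) changed sign there. That gate left 8, 8 and 3 oligodendrocyte precursors, too few to use. Each class was therefore set against other classes without precursors, so gate and reference changed at once. Without the replicate block, 1 member was called between D1-like and D2-like neurons. Over leave-one-out fits the number ranged from 1 to 3 for D1-like over D2-like neurons, from 0 to 5 for glutamatergic over spiny neurons and was 0 in each for Sst-Npy over spiny neurons. Fewer libraries were fitted there. Values that had not passed a threshold changed sign as follows. In glutamatergic neurons Nnat was 0.15 without the replicate block, 0.074 with a gate share of 90% and from -0.52 to 0.45 over leave-one-out fits, and Ndn was -0.58 with that share. In Sst-Npy interneurons Meg3 was 0.021 with that share. In labelled neurons Snrpn was -0.030 with DESeq2, -0.010 without the filter, -0.036 without the replicate block, from -0.17 to 0.062 over leave-one-out fits, -0.095 with a gate share of 90%, -0.026 in cells of at least 1000 UMIs and -0.31 against unlabelled neurons matched on UMIs, and Ndn was -0.029 without the block. With that matching Ndn was -0.22, Meg3 0.047 and Mirg 0.043. What lies behind these shifts was not tested. Leaving out cells under 1000 UMIs and thinning the rest to that number, 2 changes at once, moved the difference in the share of cells with a UMI beyond the spread of libraries for Mirg (5.42 points), Peg3 (24.6), Ndn (10.4) and Nnat (7.93). The package-default prior kept all 29 member calls, DESeq2 24, the fit without the replicate block 20, and the fits without library 1, 2 and 3 kept 23, 19 and 15. The comparisons between neuron classes were not run with Leiden classes. Depth limits Dlk1 and Mirg, which were too low to test among non-neuronal classes.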
